A study of Drosophila melanogaster with 2 samples.

Results

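The regions described here are E2f1-eGFP binding regions of the fruit fly whose summit, the base where the peak is highest, lay 1 to 500 bp downstream of the nearest protein-coding transcription start site (TSS). They were taken from the conservative set of regions over both replicates, by the summit position and the Ensembl BDGP6.54 annotation alone. A summit that lay at or within 500 bp upstream of coding TSSs on both strands was left out. The rule chose 290 of 4439 regions, which is 6.53% (95% Clopper-Pearson interval 5.82 to 7.30). They were nearest to 280 of 13945 coding genes (2.01%). The set they are compared with is the 1014 summits (22.8%) that lay 0 to 500 bp upstream of a coding TSS on 1 strand only.

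Chromatin came from whole embryos aged 0 to 24 hours that carry an E2f1-eGFP fusion, and was precipitated with an anti-GFP antibody. There was 1 group with 2 biological replicates, so no condition was compared. The promoter that drives the fusion is not stated in the labels, and whole embryos mix all embryonic cell types. Regions and genes are not replicates of anything, so intervals and p-values below cover counting error only, and read depth is unknown.

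E2f1 is the activating E2F factor of Drosophila, and binds DNA as a dimer with Dp. Its targets are known above all among genes for DNA replication and cell cycle progression, where short GC-rich E2F words lie close to the start site. A word downstream of the TSS falls in the 5′ UTR, a first intron or the start of the coding sequence, so it is both bound DNA and part of the transcribed unit.

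Any of 4 E2F words counted as a match on either strand within 50 bp of the summit, TTGGCGC being one, TTCGCGC another, TTCCCGC a further one and TTGCCGC the last. A word was found at 40 of the 290 downstream summits. The stretches below are 30 bases around the word nearest the summit, from the RefSeq sequence of the dm6 assembly, read 5′ to 3′ on the strand of the gene, with each E2F word in capitals. The first 8 are the highest of the 40 for which sequence is shown here, and eco, SMC1 and WRNexo were added, after their values were seen, because they maintain chromosomes or DNA.
CG10336, chr2L:18689723-18689752, + strand: gaagaacaaaaaTTGGCGCCAAaattttgt
Rcc1, chr3L:5932531-5932560, − strand: gctgccgccgcTTCCCGCgcattttcttcg
Seipin, chrX:2619900-2619929, + strand: aaatcaaagtatTTGGCGCcttgggaacgg
Prim2, chr3L:20361554-20361583, − strand: cagtagtttgcGCGCCAAaacaacaaacgg
Prim1, chr3L:8340525-8340554, + strand: taaataaaaagcGCGCGAAaatatgggaac
PolE2, chr3L:5897384-5897413, − strand: atctaatttgcGCGCGAAaaaacttttaat
CLIP-190, chr2L:17385350-17385379, + strand: atagctgcctgcGCGCCAAaataaagcaac
Cerk, chr3R:5361868-5361897, − strand: tttggtcatgtGCGCCAAaatatgaaaggt
WRNexo, chr3R:18366131-18366160, − strand: ccatatttttgGCGGGAAataatagtaaac
eco, chr3L:7338932-7338961, − strand: gctacaaaaaaGCGCGAAggagtcacaatt
SMC1, chr3R:24058336-24058365, + strand: aaaaaaaattatTTCGCGCtcatattgtta

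In CG10336 a pair of words on opposite strands overlapped into 1 palindrome, 47 and 50 bp past the TSS, with distances taken to the middle base of each word. The words of Prim2 and PolE2 were centred 16 and 36 bp past their TSS in the 5′ UTR, 2 and 15 bp from the summit. The word of Prim1 lay 226 bp past the TSS in an intron, 4 bp from the summit. The replicate 1 summit of Prim1 lay near it, 221 bp past the TSS, but that of replicate 2 lay at 349 bp. Another summit of the set lay 202 bp from that of Prim1. Prim1 and Prim2 encode the small and the large subunit of DNA primase, and PolE2 encodes a subunit of DNA polymerase epsilon.

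Over all 40 matched members there were 44 words, and the nearest word lay a median of 23 bp from the summit. It lay downstream of the TSS in 38 of the 40, with a median of 66 bp and quartiles of 35 and 199 bp past it, and it was in the 5′ UTR in 28 and in an intron in 9. TTGGCGC was the most frequent word, at 17 of 290 downstream summits (5.86%) and 21 of 1014 upstream summits (2.07%).

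The share of summits with an E2F word was 13.8% downstream (95% interval 10.04 to 18.3) and 4.34% upstream (3.17 to 5.78). The odds ratio was 3.53 (two-sided Fisher's exact test, Benjamini-Hochberg adjusted p = 1.26e-06 over 13 motifs). Over all 4439 regions the share was 4.17%. Windows at the members' offsets in all coding genes held a word in 5.36%, and windows at the upstream summits' offsets in 4.52%. The downstream share was the highest of these and the upstream share lay close to its background; the comparisons with the background were not tested.

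The windows also differed in base composition. Median GC content was 43.6% at downstream summits, 32.2% at upstream summits and 31.7% over the whole set, and the mean number of CG dinucleotides in the window was 5.68, 3.07 and 2.82 in the same order. With GC content as a covariate in a logistic regression, added after the data were seen, the odds ratio for the E2F word was 1.86 (n = 1304 regions, unadjusted p = 0.0117 from a normal approximation). GC content was that of the window in which the word was searched, so the word itself counted towards it. Among windows at or above the downstream median of GC, a word was found at 28 of 148 downstream summits (18.9%) and 34 of 233 upstream summits (14.6%). Below it, words were found at 12 of 142 downstream summits (8.45%) and 10 of 781 upstream summits (1.28%).

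The share also varied with distance from the TSS. Among summits 1 to 100 bp downstream, 23 of 150 (15.3%) had a word, against 27 of 265 (10.2%) of those from 99 bp upstream to the TSS itself. Farther downstream the share was 7 of 65 (10.8%) in the next 100 bp and between 10.5% and 16.1% in the 3 bins beyond. Farther upstream it was 13 of 325 (4%) at 100 to 199 bp and between 0.709% and 1.19% in the 3 bins beyond. When both classes were limited to 100 bp from the TSS, an alternative added after the data were seen, the odds ratio was 1.62 and missed the threshold (Fisher's exact test, adjusted p = 0.743).

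**Figure D1:**
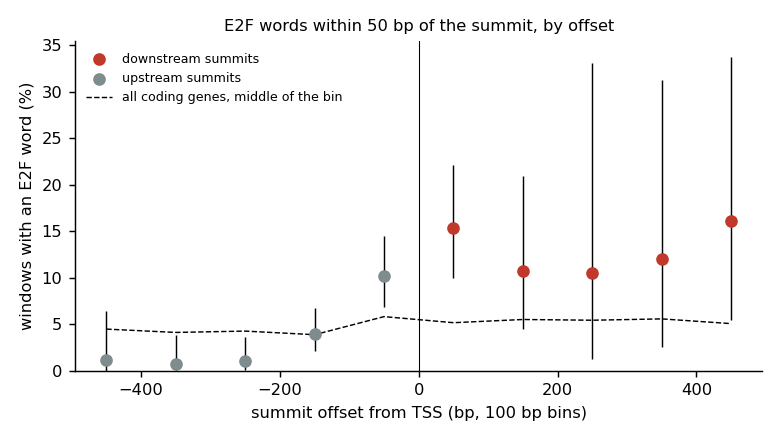
Share of summits with an E2F word within 50 bp (y axis, percent, with exact 95% intervals) in 100 bp bins of the summit's offset from its nearest coding TSS (x axis, bp); the dashed line is the share over all coding genes at the middle of each bin. The 5 downstream bins run from 10.5% to 16.1%, while the upstream bins stand at 10.2% next to the TSS and between 0.709% and 1.19% in the 3 farthest from it.

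Set against their own surroundings, the members held the word in 13.8% of summit windows and in 5.86% of windows 500 bp farther downstream (exact McNemar test on 39 and 16 discordant members, adjusted p = 0.0347 over 13 motifs). The control windows had a median GC content of 47.5% and 5.56 CG dinucleotides on average, near the values at the summits. The excess was 7.93 percentage points, and kept its direction in 13 of 13 alternatives, between 3.69 and 11.7 points, but passed the test in 6 of them. Without replicate 1 it was 7.74 points and missed the threshold (exact McNemar test, adjusted p = 0.0982). The word CACGTG, the E-box bound by Myc and Max, was less frequent at the summit than in the control window (1 against 11 of 290, exact McNemar test, adjusted p = 0.0413). That call was lost in 12 of 13 alternatives, among them without replicate 1 and without replicate 2 (exact McNemar test, adjusted p = 0.325 and 0.734), and windows at the members' median offset in all coding genes held the word in 1.28%.

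Of the other 12 motifs, 4 differed between downstream and upstream windows by Fisher's exact test. CAGCTG was found at 8.97% of downstream and 4.04% of upstream summits (Fisher's exact test, odds ratio 2.34, adjusted p = 0.0071), and CACACA at 10.3% and 5.62% (odds ratio 1.94, adjusted p = 0.0186). TATAAA was found at 11.0% of downstream and 22.4% of upstream summits (Fisher's exact test, odds ratio 0.430, adjusted p = 5.76e-05), and TTTGAA at 9.66% and 16.9% (odds ratio 0.527, adjusted p = 0.0071). All coding genes at the members' median offset of 90 bp held these 4 words in 4.25%, 7.36%, 11.0% and 11.5%. At the upstream summits' median offset all coding genes held them in 3.86%, 6.38%, 20.1% and 17.03%. The background thus differed between the offsets in the same direction as the summits for all 4 words. For TATAAA and TTTGAA it lay close to the summit shares on both sides. Whether these calls go beyond the background was not tested. The call for CAGCTG was lost without replicate 1 and without replicate 2 (Fisher's exact test, adjusted p = 0.256 and 0.0631), as was that for TTTGAA (adjusted p = 0.694 and 0.0631). The call for CACACA was lost without replicate 1 (Fisher's exact test, adjusted p = 0.139). With GC content as a covariate none of the 4 passed, with odds ratios of 1.31, 1.47, 0.966 and 0.782 and unadjusted p between 0.126 and 0.877 (n = 1304 regions). Each word again counted towards the GC content of its own window. The other 7 words searched gave no call in either comparison. They were TATCGATA, the DNA replication-related element of the factor Dref, at 2.41% of downstream and 2.47% of upstream summits (Fisher's exact test, adjusted p = 1), GGTCACACT of promoter motif 1 at 1.72% and 0.986%, GAGAG of GAGA factor at 8.28% and 9.86% and CAGGTAG of Zelda at 0.345% and 0.197%. The last were AGATAA of GATA factors at 8.28% and 7.50%, TAATTA of homeodomain factors at 5.52% and 9.37%, and AAAAAAAA at 7.93% and 7.59%. TATCGATA was in 7 summit and 0 control windows, and GGTCACACT in 5 and 0 (exact McNemar test, adjusted p = 0.0677 and 0.1625). AGATAA was in 24 and 11, and GAGAG went the other way, in 24 and 30. All coding genes at the members' median offset held TATCGATA in 0.344% and GGTCACACT in 0.229%. All words were searched on both strands. GAGA factor words, A runs and the CA repeat can overlap themselves, and a window with a match counted once.

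Genes with a word near a downstream summit had varied known roles. Rcc1 is the nucleotide exchange factor of Ran, Seipin acts in lipid droplet formation, Cerk is ceramide kinase and CLIP-190 links microtubules. SMC1 is a cohesin subunit and eco acetylates cohesin. The product of l(2)dtl is a substrate receptor of a ubiquitin ligase that acts in S phase, and Pcl and Jarid2 are partners of Polycomb repressive complex 2. Outside the highest 6, these were named after their values were seen. Rcc1, Seipin and Cerk were in both replicate sets. CLIP-190, SMC1, eco, Pcl and l(2)dtl were in the replicate 1 set only, and Jarid2 was in neither. The height of l(2)dtl was 39.5, and another summit of the set lay 222 bp away. Its replicate 2 summit lay 24 bp upstream of the TSS, and the member also lay upstream of a TSS of sigmar.

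Of the 6 highest matched members, 5 had the larger height in replicate 1. So did 250 of all 283 downstream members with a height in both replicates. Peak heights are the authors' scores, and nothing says that they were put on 1 scale for both replicates, so the replicates' heights are given side by side. CG10336, with a height of 357 over both replicates, had 249 in replicate 1 and 106 in replicate 2. CG2811 had 161 and 181, and bgcn, a factor of germ cell differentiation, had 174 and 139.
Rcc1 had 213 in replicate 1 and 59.0 in replicate 2. Seipin had 168 and 103, and Prim2 had 192 and 71.5. Only CG2811 of these 6 had the larger value in replicate 2.

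The median ratio of replicate 1 to replicate 2 height was 1.76 for the 40 members with a word and 1.36 for the 243 without one that had a height in both replicates. It was 1.42 for all downstream members, 1.25 for upstream summits and 1.23 for the whole set. Median GC content was 47.5% with a word and 42.6% without. These medians were taken after the data were seen and were not tested, and the part of GC content in them was not tested.

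**Figure D2:**
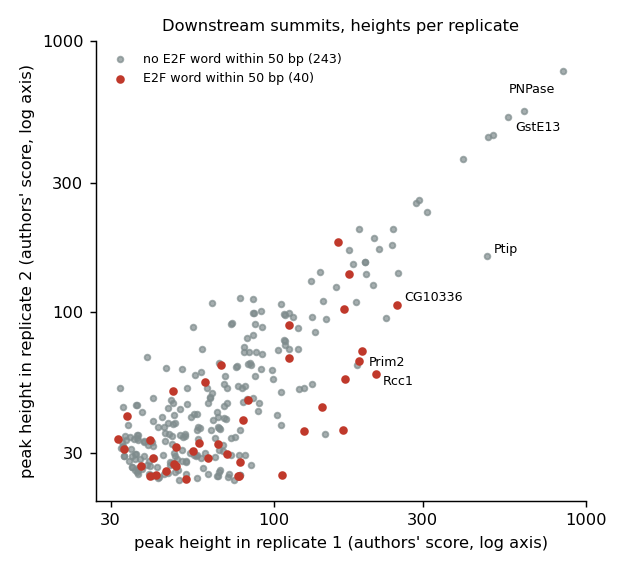
Peak height of each downstream summit in replicate 1 (x axis) and replicate 2 (y axis), the authors' scores on log axes, for the 283 members with a height in both lists; red points have an E2F word within 50 bp of the summit. PNPase is highest in both replicates, at 846 and 774, and Ptip, Rcc1 and Prim2 lie below the main run of points, with replicate 2 heights of 161, 59.0 and 71.5.

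None of the 12 highest downstream summits had an E2F word. In the top quintile of heights over the whole set, 8 of 40 downstream summits had one (20%), against 32 of the 250 below it (12.8%), a difference that was not tested. The highest summit was in PNPase, which encodes polynucleotide phosphorylase (chr3R:31404506-31404813), with a summit 84 bp past the TSS in the 5′ UTR. Its height was 1604, the ninth of all 4439 regions. Its replicate summits lay 74 and 80 bp past the TSS.

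CG8320 followed at a height of 1159 (chr2R:15992342-15992655, intron, 103 bp past the TSS) and GstE13, a glutathione S-transferase gene, at 1091 (5′ UTR, 84 bp). Next were tank at 947, CG9147 at 919 and ph-p, a subunit gene of Polycomb repressive complex 1, at 750, with summits 135, 12 and 470 bp past the TSS. Ptip, which encodes a protein with BRCT domains, had 643 in an intron at 480 bp. The other 5 were CG9399, CG31612, Trmt6, a tRNA methyltransferase gene, Ptp4E, a receptor tyrosine phosphatase gene, and CG4497, between 414 and 549.
All 12 were in both replicate sets. For each of them the 3 summit positions, over both replicates and in each, lay within 29 bp. The ratio of replicate 1 to replicate 2 height was between 1.07 and 1.36 in 11 of the 12 and 3.002 in Ptip, whose window also had the highest GC content of the 12, 64.4%, against a lowest of 21.8% in ph-p.

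Some of these summits can also belong to a neighbour. Of the 290, 59 lay at or within 500 bp upstream of a TSS of another coding gene, among them CG8320 (Pex11ab), tank (CG12194), CG9147 (Fbw5), Trmt6 (Ent2), Seipin (Tsp3A), Prim1 (CG7083), PolE2 (CG5592), WRNexo (Nup43) and eco (lark). A further 46 lay upstream of another TSS of their own gene, and 185 of no other coding TSS. An E2F word was found in 11 of the 59 (18.6%), 2 of the 46 (4.35%) and 27 of the 185 (14.6%). The median height of the 46 was 128, above the 87.7 of the 59 and the 89.2 of the 185, and 32 of the 46 (69.6%) were in the replicate 2 set.

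Summits lay mostly close to the TSS. The median offset was 90 bp, with quartiles of 34 and 204 bp, and 100 summits lay at 1 to 50 bp, 88 at 51 to 150, 46 farther out up to 300 and 56 beyond that up to 500. The farthest members were cu at 499 bp, Jarid2 at 493 and tapas at 488, with heights of 113, 81.5 and 87.4. The nearest outside were CG33725 at 501 bp, rno at 508 and aru at 509, with heights of 140, 114 and 483. Pkc98E, CG42268 and CG3847 lay at 1 bp, with heights of 68.7, 84.1 and 108, and bs, Rif1 and Cdc6 lay on the TSS itself, outside the class, with 68.7, 238 and 149.

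**Figure D3:**
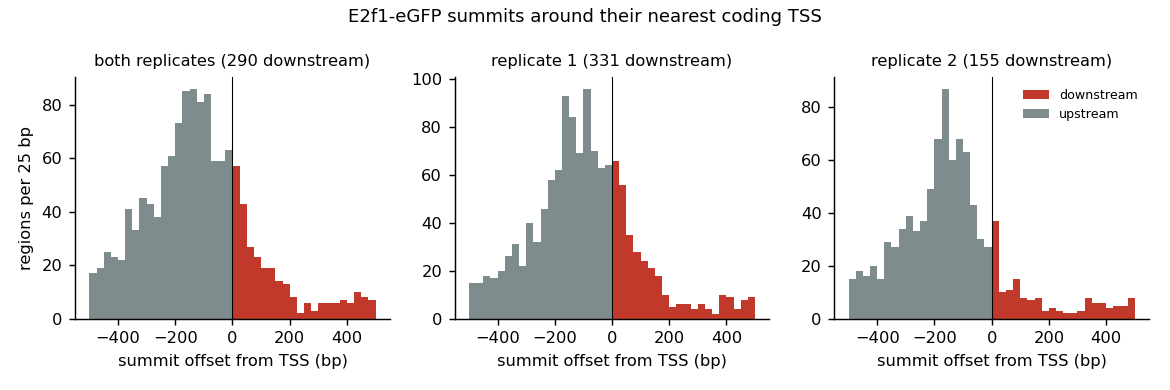
Number of regions per 25 bp (y axis) by the summit's offset from its nearest coding TSS (x axis, bp) in the conservative set over both replicates, the replicate 1 set and the replicate 2 set; red is downstream, grey is upstream of a TSS on 1 strand, and divergent summits are left out. Downstream counts fall away within about 250 bp, and there are 290, 331 and 155 downstream summits in the 3 sets.

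The annotation under the summit changed along this stretch. In all, 204 summits were in the 5′ UTR (70.3%), 66 in an intron (22.8%) and 20 in a coding exon (6.90%). All coding genes at the same offsets from their 5′-most TSS gave 57.0%, 11.4% and 30.6%, a description with no test. All 100 summits at 1 to 50 bp were in the 5′ UTR, while 40 of the 56 beyond 300 bp were intronic.

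Height and recurrence differed with the annotation. Intronic members lay farther out, at a median of 345 bp, against 52 bp in the 5′ UTR. Their median height was 139, with 47 of 66 (71.2%) in the replicate 2 set. In the 5′ UTR it was 88.8, with 90 of 204 (44.1%), and in coding exons 65.1, with 4 of 20 (20%). An E2F word was found in 12.1%, 14.2% and 15.0% of these 3 groups. These differences were not tested.

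As a class, the downstream summits were lower than the upstream ones. Their median height was 92.9, against 133 upstream and 113 over the whole set. In the top quintile of heights there were 40 of 290 downstream summits (13.8%) and 287 of 1014 upstream summits (28.3%; Fisher's exact test, odds ratio 0.405, adjusted p = 3.23e-07 over 3 tests). That call was lost without replicate 1, at 18.1% and 26.2% (Fisher's exact test, odds ratio 0.620, adjusted p = 0.0980), and at a global IDR of 0.001 or lower, at 20.4% and 26.8% (odds ratio 0.701, adjusted p = 0.134). A q-like value above 0.05 was given to 88 downstream (30.3%) and 137 upstream (13.5%) regions, beside 17% of the whole set.

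Downstream summits were found again less often in replicate 2. They overlapped a region of the replicate 2 set in 141 of 290 cases (48.6%), against 727 of 1014 upstream (71.7%; Fisher's exact test, odds ratio 0.374, adjusted p = 2.83e-12) and 67.3% of the whole set. For replicate 1 the counts were 193 (66.6%) downstream and 756 (74.6%) upstream, with 68.8% of the whole set (Fisher's exact test, odds ratio 0.679, adjusted p = 0.00874). Both replicate sets held 124 downstream members (42.8%) and 629 upstream ones (62.0%), beside 55.3% of all regions. The files do not name the inputs behind each replicate's own set. Replicate 1 alone held 69 downstream (23.8%) and 127 upstream (12.5%), and replicate 2 alone 17 (5.86%) and 98 (9.66%).

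The difference in replicate 1 went with height. That height is taken over the same 2 replicates whose sets are compared, so it is not independent of recurrence. In a logistic regression with log2 height as a covariate, added after the data were seen, the odds ratio was 1.40 for replicate 1 (n = 1304 regions, unadjusted p = 0.0598) and 0.576 for replicate 2 (unadjusted p = 0.00124). In the highest quintile of heights every downstream member was in both replicate sets. In the middle quintile, 44 of 47 downstream (93.6%) and 140 of 174 upstream (80.5%) regions were in the replicate 1 set, but 26 downstream (55.3%) and 138 upstream (79.3%) in the replicate 2 set. The gap in replicate 2 was not detectable among the top 2 quintiles, where 96.7% of downstream and 97.8% of upstream regions recurred (Fisher's exact test, adjusted p = 0.686).

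**Figure D4:**
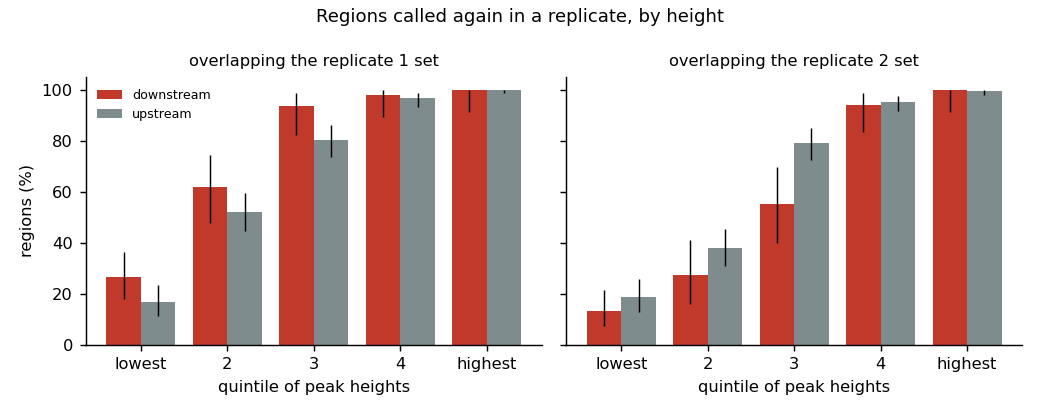
Share of regions that overlap a region of the replicate 1 set (left) or the replicate 2 set (right), by quintile of peak height over all 4439 regions (x axis), with exact 95% intervals; red bars are downstream and grey bars upstream summits. In the middle quintile, downstream summits are at 93.6% in replicate 1 and 55.3% in replicate 2, and upstream summits at 80.5% and 79.3%.

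Base composition moved with recurrence too. Over all regions, the share in the replicate 2 set was 77.4% in the lowest quintile of GC content and 49.0% in the highest, which ran from 42.6% to 76.2% GC. The same shares for replicate 1 were 76.8% and 61.8%. The highest quintile held 155 of the 290 downstream summits (53.4%), of which 55 (35.5%) were in the replicate 2 set, against 53.0% of the 247 upstream summits there. With height and GC content together as covariates the odds ratio for replicate 2 was 0.690 (n = 1304 regions, unadjusted p = 0.0388), and that for replicate 1 was 1.34 (unadjusted p = 0.112). Whether GC content is behind the difference between replicates was not tested.

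Where a member was found again, its summit usually stayed downstream. The overlapping region's own summit lay 1 to 500 bp past the same TSS in 168 of 193 members (87.0%, interval 81.5 to 91.4) in replicate 1 and in 124 of 141 (87.9%, interval 81.4 to 92.8) in replicate 2. The median shift was 10 and 14 bp. Of the 124 members in both sets, 103 (83.1%) stayed downstream in both. Summits at 1 to 50 bp stayed least often, in 49 of 63 (77.8%) and 34 of 43 (79.1%), and the rest of those lay at or upstream of the TSS.

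**Figure D5:**
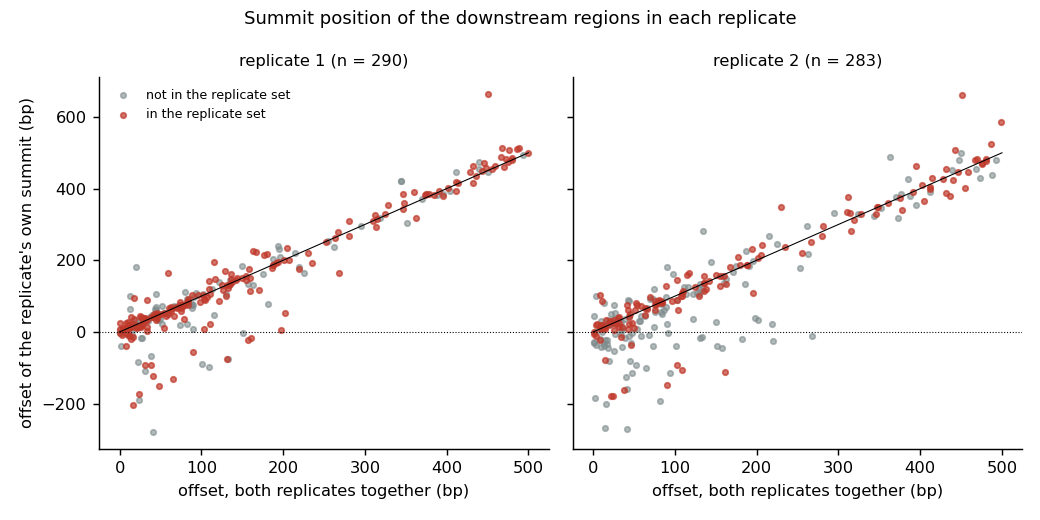
Offset of each replicate's own summit from the TSS (y axis, bp) against the offset over both replicates (x axis, bp), for the 290 members with an overlapping candidate region in replicate 1 and the 283 in replicate 2; red points are in that replicate's thresholded set, and the line marks equal offsets. Most points follow the line, and a scatter of members lies at or below 0, upstream of the TSS.

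A small group of very low members behaved differently. After the data were seen, 30 members with a height under 40 were looked at apart. Another summit of the set lay within 1000 bp of 28 of these 30, against 67 of the other 260 members. The replicate 1 summit lay at or upstream of the TSS in 18 of the 30 and in 17 of the 260, and the replicate 2 summit in 23 of 27 and in 36 of 256. In pzg, the lowest but 1, the height was 2.90 over both replicates, and another summit of the set lay 204 bp away. The replicate regions that overlapped it had heights of 112 and 99.3, with summits 172 and 180 bp upstream. An overlapping replicate region can be that of such a neighbour, so its height and recurrence need not be those of the member. The Nup58 members, 209 bp apart, were given the same replicate heights, 77.9 and 24.9.
PolE4, which encodes a subunit of DNA polymerase epsilon, was of this kind, with a height of 7.87 at 48 bp. Its overlapping replicate regions had 105 and 38.0, with the replicate 2 summit 114 bp upstream and that of replicate 1 farther still. Cdc7, an S-phase kinase gene, was of this kind too, with 23.3 at 41 bp. Its overlapping replicate regions had 89.6 and 46.0, with summits 122 and 158 bp upstream. For such members a downstream position over both replicates did not match the summits of the overlapping replicate regions. Without regions of height under 40 in either class, the E2F word was at 13.8% of downstream and 4.35% of upstream summits (Fisher's exact test, odds ratio 3.54, adjusted p = 5.01e-06).

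Among the gene lists, the share of genes with a downstream summit ran from 0% to 21.7%, beside 2.01% of all coding genes, with no test of any list. Of 46 genes of DNA replication and nucleotide supply, 27 had a summit of the set within 500 bp of a TSS (58.7%, beside 17.6% of all coding genes), and 5 had a downstream one (10.9%). Prim2 had a height of 260 at 14 bp, with 192 and 71.5 in the replicates. Prim1 had 240 at 230 bp, with 187 and 66.1, and PolE2 had 219 at 21 bp, with 169 and 56.6. These 3 were in both replicate sets and held an E2F word, though the replicate 2 summit of Prim1 lay 349 bp past the TSS. DNAlig1, the replicative ligase gene, had 17.7 at 82 bp with no word. It was in neither replicate set, and its overlapping candidate regions had summits 22 bp past the TSS and 192 bp upstream in replicates 1 and 2. PolE4 had no word either and, as given above, replicate summits upstream of the TSS.

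Of 34 chromatin and Polycomb genes, 14 had a summit of the set near a TSS (41.2%) and 5 had a downstream one (14.7%): ph-p, Trl, Su(z)12, ph-d and Utx. The highest were ph-p at 750 and Trl, which encodes GAGA factor, at 333, with 179 and 150 in the replicates at 145 and 142 bp. None of these 5 had an E2F word, but Pcl and Jarid2, which are not on the list, did. Of 23 genes of actin and cell adhesion, 8 had a summit near a TSS (34.8%) and 5 a downstream one (21.7%), led by sqh, the myosin regulatory light chain gene, at 281 and LanA, a laminin subunit gene, at 97.4, again with no word.

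Of 85 cytosolic ribosomal protein genes, 52 had a summit near a TSS (61.2%) but 5 had a downstream one (5.88%). The same shares over all coding genes were 17.6% and 2.01%. RpL30 had 171 at 11 bp and RpL26 had 128 at 31 bp, and 4 of the 5 lay at 8 to 31 bp and upstream of another TSS of their own gene. The replicate 1 set placed 13 of the 85 downstream and the replicate 2 set 7. Of 76 RNA processing and export genes, 29 had a summit near a TSS (38.2%) and 4 had a downstream one (5.26%). IntS6, an Integrator subunit gene, had 166 and Nup58, a nucleoporin gene, 94.6. IntS6 was not in the replicate 1 set and Nup58 was not in the replicate 2 set. The replicate 1 set placed 1 of the 76 downstream, and so did the replicate 2 set. Of 52 translation factor genes 3 had a downstream summit (5.77%), with eIF3h at 165 and eEF5 at 102.

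Single genes stood for 4 other lists, between 2.86% and 5.88% of each, beside 2.01% of all coding genes. Among 32 cell cycle regulators it was Dp, the partner of E2f1 itself, with a summit in an intron 412 bp past the TSS (chr2R:13223921-13224011). Its height was 228, with 136 and 84.5 in the replicates at 394 and 399 bp, and no E2F word was within 50 bp. Nrx-1, which encodes neurexin, had 174 among 23 neuronal genes. Mef2, a muscle transcription factor gene, had 72.5 among 17 muscle genes, and aop, an ETS repressor gene, had 23.9 among 35 signalling genes. Neither Mef2 nor aop was in a replicate set. Mef2 lay at 2 bp, with the replicate 1 summit 38 bp upstream and that of replicate 2 on the TSS. The aop summit lay at 14 bp, as in replicate 1, but 269 bp upstream in replicate 2. Of 73 mitochondrial ribosomal protein genes, 12 glycolysis genes and 36 patterning and Hox genes, 0 had a downstream summit. All coding genes had one in 2.01%, a share at which lists of this size can hold 0, so nothing is read from it. A summit near a TSS was found for 20 (27.4%), 7 (58.3%) and 3 (8.33%) of them, beside 17.6% of all coding genes.

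The genes themselves were compared after leaving out 49 that had summits of both classes. An initiator word, TCAGT within 10 bp of the TSS on the gene's strand, was at 21 of 231 downstream genes (9.09%) and 183 of 902 upstream genes (20.3%; Fisher's exact test, odds ratio 0.393, adjusted p = 1.02e-04 over 6 properties), beside 12.2% of all coding genes. That call was lost in 3 of 8 alternatives, 1 of them the replicate 1 set alone (Fisher's exact test, odds ratio 0.658, adjusted p = 0.134). Another left out members upstream of another coding TSS, at 12.8% and 20.2% (Fisher's exact test, odds ratio 0.580, adjusted p = 0.110). The last limited both classes to 250 bp (Fisher's exact test, odds ratio 0.555, adjusted p = 0.0573). TATAAA 20 to 40 bp upstream was at 1.73% and 3.44% (Fisher's exact test, adjusted p = 0.312). Genes longer than the median coding gene were 73.2% and 75.4%, and genes with a first exon that ends within 500 bp 73.2% and 72.8% (Fisher's exact test, adjusted p = 0.596 and 1).
More than 1 TSS position was annotated in 61.9% of downstream and 53.4% of upstream genes (Fisher's exact test, odds ratio 1.42, adjusted p = 0.0433), and a coding TSS on the other strand within 1000 bp upstream in 42.9% and 9.76%. Both can follow from the position rule, which depends on neighbouring TSSs, so nothing is read from them.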

How the data were processed

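E2f1-eGFP ChIP-seq regions of 2 replicates were analysed as the authors deposited them, on dm6. Per the deposited readme files, regions were ranked or thresholded by IDR (irreproducible discovery rate between 2 inputs); the sources used here name no aligner or peak caller. Peak heights are scores the authors deposited, a value of the peak itself, used to rank and describe regions. The q-like value and the global IDR are −log10 values in the deposited files; every conservative region had a global IDR of 0.01 or lower. The files hold no read counts, so read depth and the precision it gives are unknown. Intervals are exact Clopper-Pearson.

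Summits were written 1-based and placed against coding TSSs of Ensembl BDGP6.54, release 115; a tie went to the TSS the summit lay upstream of. Sequence was read from the RefSeq genome, which shares that build. Replicate recurrence was an overlap of at least 1 bp. Replicate heights came from each replicate's ranked list, from the overlapping region with the nearest summit. Windows held 50 bp each side of the summit. The tests were two-sided Fisher's and exact McNemar tests, with Benjamini-Hochberg adjustment within 3 recurrence and height tests, 13 motifs (once per comparison) and 6 gene properties, threshold 0.05. The position and motif scripts were tested on simulated data. Of the symbols in the 13 gene lists, 12 were matched through older names. Named genes were the 12 highest members, the 6 highest with an E2F word, the 2 highest of each list and the 3 nearest each edge; others were named after their values were seen. The members, lists and tests were chosen with earlier results of these data known. Alternatives were the larger set, each replicate alone, a stricter IDR, other distances, TSSs, windows, control windows and overlap rules. Tests used scipy 1.17.1 and statsmodels 0.14.6, tables pandas 2.3.3 and numpy 2.4.6, and figures matplotlib 3.10.9, under Python 3.11.15.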

Additional observations from a re-analysis of the deposited data

How the results depend on the processing

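No paired analysis was possible because the replicates belong to 1 group. The number of downstream summits was 137 at a global IDR of 0.001 or lower, 190 without summits within 50 bp of the TSS, 185 without members upstream of another coding TSS, and 155 and 331 in the replicate 2 and the replicate 1 set alone. The odds ratio for the top quintile of heights was 0.701 at the stricter IDR and 0.620 without replicate 1, where the call was lost in both, and 0.408 without replicate 2, where it was not. Recurrence in replicate 1 turned round to odds ratios of 3.71 at the stricter IDR, 1.26 in the top 2 quintiles of heights, 1.40 with log2 height and 1.34 with log2 height and GC content as covariates, none past the threshold. It was 0.888 with GC content alone and 0.714 without summits within 50 bp of the TSS, also not past it. Recurrence in replicate 2 kept its direction in 14 of 14 alternatives and its call in 12, where the regressions with covariates were judged on unadjusted p. Its odds ratio was 0.475 at the stricter IDR and 0.651 in the top 2 quintiles.

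The count of motifs more frequent at the summit than in the control window, 1 in the main comparison, was 4 in the larger set and 2 with windows of 100 bp each side or the 5′-most TSS only. It was 0 at the stricter IDR, within 250 bp, without summits within 50 bp of the TSS, without members upstream of another TSS and with windows of 25 bp, and between 0 and 2 with each replicate left out. The count of motifs that differed from upstream, 5, was 2 at the stricter IDR and with windows of 25 bp, 3 with the 5′-most TSS only and without members upstream of another TSS, 0 within 100 bp of the TSS, and 2 and 3 with each replicate left out. The odds ratio for the E2F word kept its direction in 14 of 14 alternatives and its call in 13, between 1.62 and 4.10. Among the 13 is the logistic regression with GC content, which was judged on an unadjusted p of 0.0117, unlike the rest. That for CACACA turned to 0.915 at the stricter IDR. Gene properties past the test, 3, were 1 within 250 bp and without members upstream of another TSS, and between 1 and 3 with each replicate left out. The share of intronic summits, 22.8%, was 10.7% within 250 bp, 32.8% at the stricter IDR, 34.7% without summits within 50 bp, 29.7% without members upstream of another TSS, and 20.5% and 34.8% with each replicate left out. Replicate summits stayed downstream in 93.2% for both replicates where summits within 100 bp counted as shared, which keeps near summits by construction, and in 93.0% for replicate 2 with a reciprocal overlap of 50%. Other causes of these changes were not tested. Regions of height under 40 left out changed no call of recurrence, height or the E2F word.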
